A study of Mus musculus with 179 samples.

Results

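Cadherins and protocadherins are calcium-dependent cell adhesion proteins, and 55 of their genes were followed across 4 regions of the adult mouse brain. Genes were taken whose symbol is Cdh and a number, or Pcdh and a run of letters and digits, without Cdh5, the cadherin of endothelium. They were chosen by level: each averaged at least 0.5 RPKM (reads scaled by transcript length and library size) over the 20 libraries of male VTA, or at least 10 normalised reads over the libraries of PFC, HIP and the female regions. Of 61 matching names, among 37991 genes of the RPKM table, 55 passed. By class they were 4 type I and 12 type II classical cadherins, 2 other cadherins, 4 delta-1, 5 delta-2 and 3 other solitary protocadherins, and 2 alpha, 22 beta and 1 gamma genes of the protocadherin clusters. Just inside stood Pcdhb1, at 15.2 normalised reads, and Pcdh12, at 24.8. Just outside stood Cdh3, the P-cadherin of epithelia, at 9.96 normalised reads and 0.0134 RPKM. Cdh16, Cdh17, Cdh26 and an identifier labelled as a Pcdh15 pseudogene fell below both limits. Pcdhb1 passed through 1 region, the NAc, where it was highest, so its difference there was partly built into the choice. Since level chose the members, their levels are only described.

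RNA came from C57BL/6 mice raised with standard care (standard) or with early life stress (ELS), and tissue was frozen 24 h after behavioural testing in adulthood. Punches were taken of VTA (ventral tegmental area, seat of midbrain dopamine neurons), NAc (nucleus accumbens, in the ventral striatum), PFC (prefrontal cortex) and, from males alone, HIP (hippocampus). Males were left undisturbed as adults (control) or met social defeat by an aggressive male (defeat), and females were controls or met a sub-threshold variable stress (STVS). Males and females were separate cohorts, so no test compares the sexes. ELS ran from postnatal day 10 to 20. Male NAc also had a window from day 2 to 12, and the male VTA labels give no days. Male VTA held 4 standard control, 4 ELS control, 6 standard defeat and 6 ELS defeat libraries. Male NAc held 4 standard control, 6 standard defeat, 4 ELS P10-20 control, 6 ELS P10-20 defeat, 4 ELS P2-12 control and 5 ELS P2-12 defeat libraries. The 4 groups of male PFC and of male HIP had 6 libraries apiece. In every female region there were 6 standard control, 5 ELS control, 5 standard STVS and 6 ELS STVS libraries. Each male VTA and male NAc library pooled punches of 3 mice, and the others were individual mice. All 163 RNA libraries are of bulk tissue, in which fewer cells of a type and less RNA per cell cannot be told apart.

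Classical cadherins bind the same or a related cadherin on the facing cell and hold the actin skeleton through catenins on their short cytoplasmic tail, and neurons of different nuclei carry different type II cadherins. Delta protocadherins are single genes with weaker adhesion that signal to actin and act in axon growth, synapse formation and synapse loss. The clustered protocadherins lie in tandem alpha, beta and gamma arrays from which each neuron transcribes a few promoters, and the resulting mixture lets a neuron tell its own branches from those of others.

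Depth and sample facts bear on every value below. The whole-read tables held 13601728 to 42746141 reads per library, and the depth of male VTA is unknown. Members in the table of PFC, HIP and female libraries numbered 54 (Pcdha3 was not in it), 53 reached 0.5 RPKM in male VTA, and 33 were in the male NAc table; the other 22 were not analysed in that region. The kit did not mark strand, and beta genes resemble each other closely, so reads could be split between neighbours. The identifier named Pcdha5 covers 10 transcripts in GENCODE vM1 and is Pcdha11 in the reference used here, and that named Pcdhga8 covers 10 and is Pcdhgc5, a C-type gene of the gamma array. Each may therefore collect reads of its whole array. Pcdha5 read 4406 normalised reads in the male NAc table but 81.4 in female NAc, so its values in these tables were not compared. Of the region markers, 8 of 8 dopamine neuron genes were higher in VTA than in NAc and in PFC, 7 of 7 measured striatal neuron genes higher in NAc than in PFC, 8 of 8 cortical neuron genes lower in NAc and in VTA than in PFC, and 6 of 8 hippocampal genes higher in HIP than in male PFC. The hippocampal list does not single out HIP, since 6 of its 8 genes were also higher in female NAc than in PFC. The dopamine markers summed to 25107 to 114943 normalised reads over the 6 female VTA standard controls. Whether the punches held unequal shares of that nucleus was not tested. In 14 libraries a transcript went against the label or the punch, and these are called the doubted libraries: Xist above 200 in 3 male PFC libraries, low Xist in 3 female libraries, Ddx3y above 50 in 1 female library, and the choroid plexus transcript Ttr above 10000 in 1 female NAc and 6 male HIP libraries. The 3 of low Xist are replicate 3 of the standard STVS group in VTA, NAc and PFC, and no label says whether libraries of 1 group and number share a mouse.

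The 250 bases upstream of a start of 5 members are shown, chosen after their values were seen. The start is that of the first promoter entry per gene. For Cdh20, Cdh7 and Pcdh19 it lies downstream of the outermost RefSeq start. Their windows therefore reach into the gene, and that of Cdh7 lies wholly inside it. Cdh20 and Cdh7 both lie on chromosome 1, with gene spans of 104768340 to 104995481 and 109982237 to 110145272, so they are not adjacent. They ran in opposite directions between VTA and NAc. Pcdh20, Pcdh8 and Pcdh19 had the largest log2 fold changes of the members higher in HIP than in PFC. All are RefSeq sequence of build GRCm38.p6, 5′ to 3′ on the gene's own strand: Cdh20 at chr1:104768270-104768519 (plus strand), Cdh7 at chr1:109982650-109982899 (plus strand), Pcdh20 at chr14:88471397-88471646 (minus strand), Pcdh8 at chr14:79771313-79771562 (minus strand) and Pcdh19 at chrX:133688994-133689243 (minus strand). Capitals mark a TATA box in Pcdh8 and a GC box in Pcdh19.
Cdh20: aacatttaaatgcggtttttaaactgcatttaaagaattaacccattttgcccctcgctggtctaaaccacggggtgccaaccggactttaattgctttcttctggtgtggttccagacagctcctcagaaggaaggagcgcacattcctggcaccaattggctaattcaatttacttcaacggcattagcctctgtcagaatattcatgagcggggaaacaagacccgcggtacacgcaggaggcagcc
Cdh7: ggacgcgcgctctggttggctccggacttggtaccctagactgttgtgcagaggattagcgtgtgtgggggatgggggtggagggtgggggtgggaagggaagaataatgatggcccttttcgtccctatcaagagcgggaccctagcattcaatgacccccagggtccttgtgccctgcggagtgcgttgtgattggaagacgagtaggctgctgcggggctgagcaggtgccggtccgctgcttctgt
Pcdh20: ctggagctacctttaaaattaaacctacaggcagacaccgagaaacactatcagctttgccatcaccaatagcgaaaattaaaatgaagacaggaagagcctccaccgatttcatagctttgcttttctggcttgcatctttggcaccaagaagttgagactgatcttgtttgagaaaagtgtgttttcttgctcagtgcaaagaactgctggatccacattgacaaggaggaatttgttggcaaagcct
Pcdh8: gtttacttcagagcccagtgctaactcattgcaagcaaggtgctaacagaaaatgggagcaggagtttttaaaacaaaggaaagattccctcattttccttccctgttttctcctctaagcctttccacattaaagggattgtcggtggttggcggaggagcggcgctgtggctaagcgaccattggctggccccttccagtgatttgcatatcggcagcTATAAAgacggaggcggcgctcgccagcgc
Pcdh19: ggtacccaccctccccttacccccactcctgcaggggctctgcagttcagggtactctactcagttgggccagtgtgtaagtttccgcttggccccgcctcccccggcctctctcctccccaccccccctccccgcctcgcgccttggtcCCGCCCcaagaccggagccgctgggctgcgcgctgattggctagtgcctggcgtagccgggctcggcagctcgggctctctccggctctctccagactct

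The motifs were searched on both strands: a GC box (GGGCGG or CCGCCC), an E-box (CAGCTG) and a TATA box (TATAAA or TTTATA). None of them overlaps another in its letters. Of the 21 members with an entry that lie outside chromosome 18, where the clusters sit, 9 (42.9%) held a GC box, against 32.9% of the upstream windows of 27025 genes. An E-box stood in 2 (9.52% against 12.8%) and a TATA box in 2 (9.52% against 13.0%). The members' windows held a median of 10 CG dinucleotides, against 6 over all genes. Among the 5 shown, Pcdh20 had 3 and Pcdh19 had 16. These are matches of letters in a window, not tested sites.

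RPKM, which divides by transcript length, let genes be ranked against each other in male VTA. The only gamma identifier, which may collect reads of its whole array, stood at 13.0 RPKM. Delta protocadherins had class medians of 11.6 RPKM for delta-1 and 8.66 for delta-2 genes. The 2 other cadherins had a median of 6.65, and type II cadherins a median of 4.86, type I a median of 2.72 and beta genes a median of 1.43 RPKM. Pcdh9 was highest, at 34.9 ± 2.69 RPKM (SD, n = 4 pools), with all 4 libraries above those of the next gene, Pcdh10, at 19.8 ± 1.31. Pcdh17 followed at 16.4 ± 1.77, below every library of Pcdh10. Cdh2, N-cadherin, stood at 15.8 ± 1.10 and Cdh11 at 14.9 ± 1.23, and these ranges overlapped with that of Pcdh17. Cdh20 (12.3 ± 0.237), Cdh13 (12.2 ± 1.40) and Pcdh7 (12.1 ± 0.652) could not be ordered within their spread. The lowest were Pcdh12 at 0.118 ± 0.0160 and Pcdhb1 at 0.0954 ± 0.0503 RPKM. Cdh1 ran from 0.0137 to 4.24 RPKM among the 4 control pools, the widest spread of any member for its level.

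Most members differed between regions, at rates near those of other genes. Regional values come from standard controls, with 6 libraries per region, compared by limma on log2(value + 1) over all genes tested, and a call means a Benjamini-Hochberg adjusted p under 0.05. Errors on fold changes are standard errors of the fit, and log2(value + 1) understates the change of low genes. Between female VTA and NAc, 46 of 54 members (85.2%) were called, beside 77.8% of all genes. Of these, 21 were higher in VTA (beside 40.0%) and 25 lower (beside 37.7%). Between NAc and PFC, 42 of 54 were called (77.8%, beside 66.5%), 21 higher in NAc (beside 34.2%) and 21 lower (beside 32.2%). Between VTA and PFC, 40 of 54 were called (74.1%, beside 75.1%), 17 higher in VTA (beside 38.0%) and 23 lower (beside 37.1%). Between male HIP and male PFC, 25 of 53 were called (47.2%, beside 43.1%), 7 higher in HIP (beside 21.8%) and 18 lower (beside 21.3%).

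Large differences were fewer. With an absolute log2 fold change of at least 1 added to the call, VTA against NAc gave 16 members (beside 22.5% of all genes), 8 in each direction. NAc against PFC gave 11 (beside 15.1%), VTA against PFC 8 (beside 21.6%) and HIP against PFC 5 (beside 8.72%). Pcdhb1 is in the first 3 counts, which were 15, 10 and 7 without it. As shares of the members, Pcdhb1 included, these were 29.6%, 20.4%, 14.8% and 9.43%. The libraries of the regions did not overlap for 32 members in VTA against NAc (beside 59.3% of genes), 28 in NAc against PFC (beside 45.0%), 28 in VTA against PFC (beside 56.4%) and 13 in HIP against PFC (beside 24.0%). Among the female regions the NAc had the highest mean of 21 members, PFC of 18 and VTA of 15. For 16, 11 and 11 of these the top region was above both others by test. Of the 16, 13 were beta genes, Pcdhb1 included. How often other genes passed both tests was not counted, so these counts do not set the members apart.

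**Figure D1:**
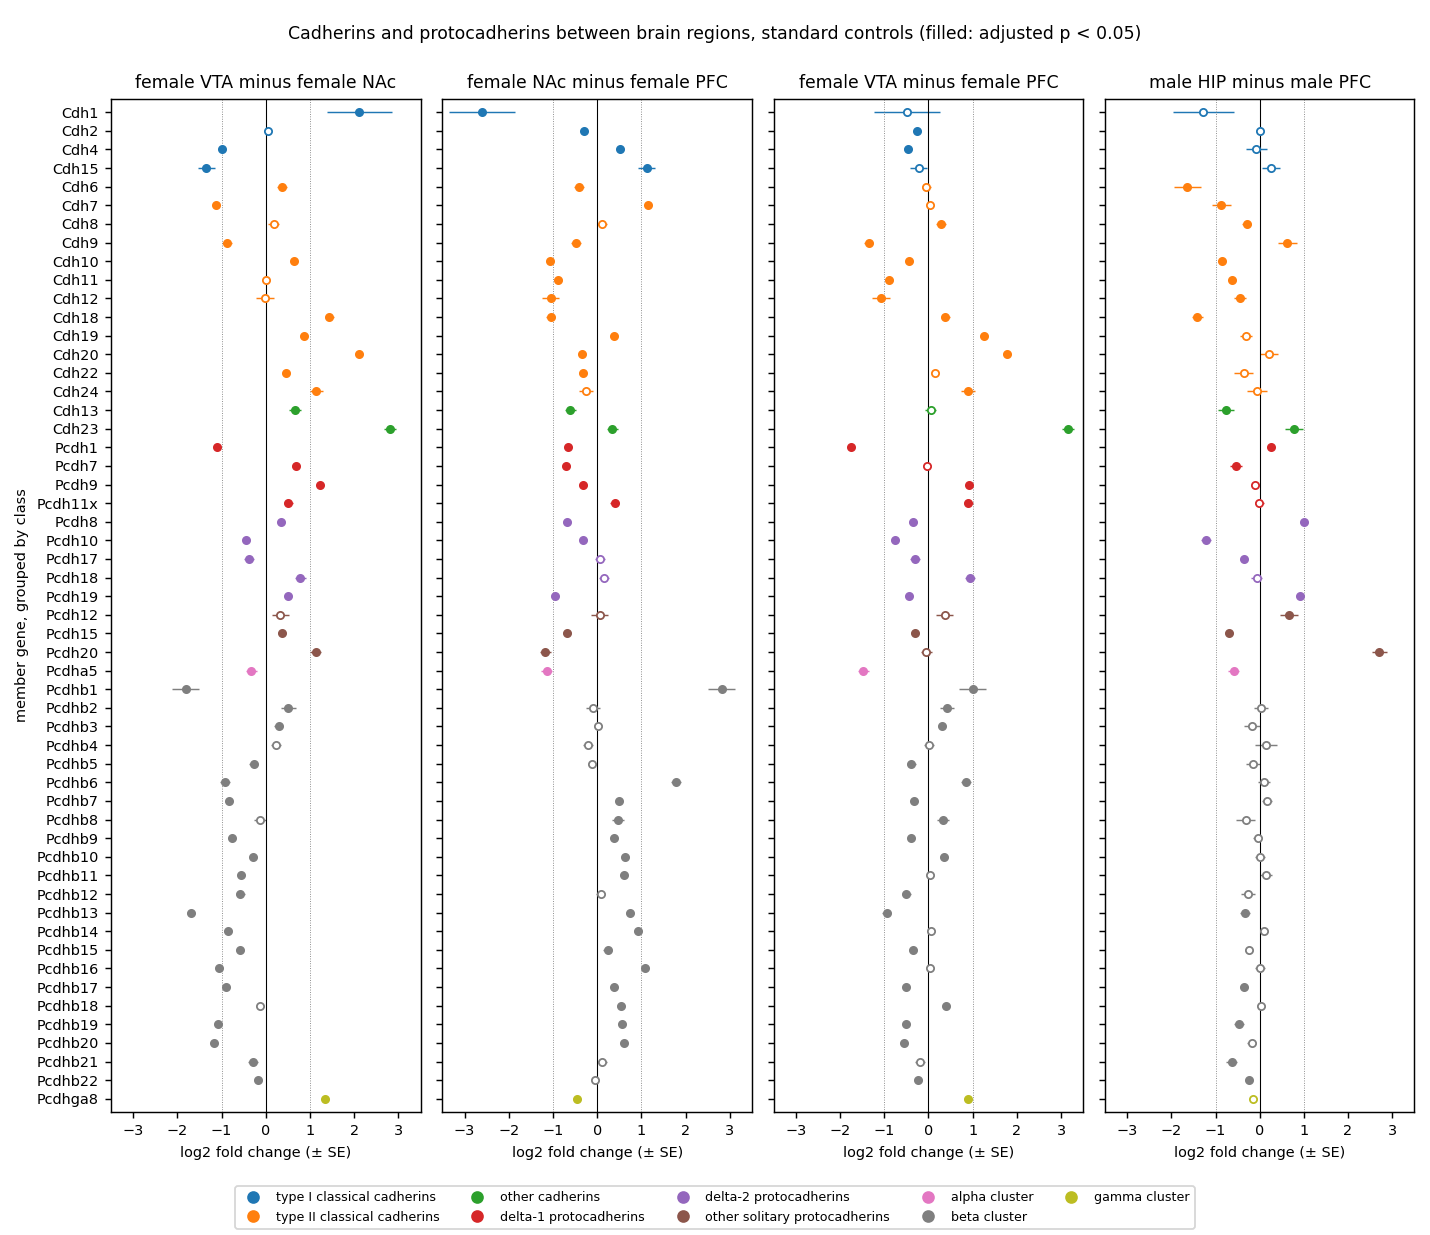
Differences in log2(normalised reads + 1) between regions for each tested member, in standard controls, with bars of 1 standard error. Filled points passed an adjusted p under 0.05. Cdh23 and Cdh20 stand far to the VTA side and Pcdh20 to the HIP side; Pcdhb1, far to the NAc side, passed the level limit through NAc.

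Of the 4 type I classical cadherins, Cdh15 and Cdh1 passed a log2 fold change of 1 between female regions. Cdh15, M-cadherin, known from muscle and cerebellum, read 40.8 to 83.3 (median 67.7) in VTA, 116 to 225 (median 165) in NAc and 49.4 to 97.6 (median 80.2) in PFC. NAc libraries were all above those of the other regions, with log2 fold change -1.35 ± 0.19, adjusted p = 1.89e-06 for VTA against NAc and log2 fold change 1.12 ± 0.19, adjusted p = 2.76e-05 for NAc against PFC. In males Cdh15 averaged 62.2 normalised reads in PFC and 73.4 in HIP, and 0.872 RPKM in VTA. Cdh4, R-cadherin of retina and brain, averaged 827 in VTA, 1651 in NAc and 1144 in PFC, and was lower in VTA than in NAc (log2 fold change -0.998 ± 0.07, adjusted p = 4.04e-11). In males Cdh4 averaged 972 normalised reads in PFC and 1005 in HIP, 1958 in the separately normalised NAc table, and 4.13 RPKM in VTA. Cdh2, N-cadherin, the main classical cadherin of neural tissue, was nearly even across female regions at 3079.8, 2993 and 3675, with log2 fold change -0.29 ± 0.07, adjusted p = 0.00103 for NAc against PFC. In males Cdh2 averaged 3417 normalised reads in PFC and 3419 in HIP, 3482 in the separately normalised NAc table, and 15.8 RPKM in VTA.

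Cdh1, E-cadherin of epithelia, was low and uneven. It read 6.53 to 43.1 (median 14.2) in VTA, 1.01 to 8.32 (median 2.59) in NAc and 1.90 to 95.4 (median 39.9) in PFC normalised reads. The NAc libraries were low throughout, but the lowest PFC library reached as low, so ranges overlapped. VTA exceeded NAc (log2 fold change 2.12 ± 0.74, adjusted p = 0.0151; with a pseudocount of 10, 0.98 at adjusted p = 0.0545), and NAc was below PFC (log2 fold change -2.60 ± 0.74, adjusted p = 0.00490). Counts this small carry wide counting error: 1 NAc library held about 1 normalised read. Of the meninges and fibroblast markers, 7 of 8 were lower in NAc than in PFC (beside 32.2% of all genes). Only 3 of 8 were higher in VTA than in NAc (beside 40.0%). These markers summed to 1628 to 1764 in NAc, 1875 to 6098 in PFC and 1744 to 5246 in VTA. Their part in the Cdh1 difference was not tested. In males Cdh1 averaged 62.0 normalised reads in PFC and 42.1 in HIP, 33.8 in the separately normalised NAc table, and 1.31 RPKM in VTA.

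The 12 type II cadherins differed from each other in the region where they were highest. Against NAc, VTA was higher for 7 (beside 40.0% of all genes) and lower for 2 (beside 37.7%). NAc against PFC gave 2 higher (beside 34.2%) and 8 lower (beside 32.2%). Their median log2 difference was 0.41 for VTA against NAc and -0.37 for NAc against PFC, beside medians of 0.01 and 0.02 over all genes. Of the 12, 6 were highest in VTA, 4 of them above both other regions by test. The share of all genes passing both tests was not counted, so this is not given as a trait of the class. Cdh20 had the largest VTA difference of the class. Its libraries read 1335 to 1550.4 (median 1474) in VTA, 297 to 429 (median 336) in NAc and 376 to 458 (median 441) in PFC normalised reads. Every VTA library lay above every library of the other 2 regions, with log2 fold change 2.11 ± 0.07, adjusted p = 5.18e-16 against NAc and log2 fold change 1.78 ± 0.07, adjusted p = 5.96e-15 against PFC. In males Cdh20 averaged 459 normalised reads in PFC and 567 in HIP, 375 in the separately normalised NAc table, and 12.3 RPKM in VTA. Cdh7, also on chromosome 1, ran the other way, at 720.5 to 895 (median 853) in VTA, 1664 to 1977 (median 1804) in NAc and 754 to 907 (median 808) in PFC. NAc libraries did not overlap with those of VTA (log2 fold change -1.12 ± 0.06, adjusted p = 3.18e-13) or of PFC (log2 fold change 1.15 ± 0.06, adjusted p = 4.51e-13). In males Cdh7 averaged 820.3 normalised reads in PFC and 484 in HIP, 1389 in the separately normalised NAc table, and 2.81 RPKM in VTA. Cdh19, best known from Schwann cell precursors and also on chromosome 1, went with Cdh20. It read 527 to 663 (median 607) in VTA, 281 to 372 (median 331) in NAc and 199 to 323 (median 251) in PFC. The log2 fold change was 0.87 ± 0.09, adjusted p = 2.67e-08 for VTA against NAc and 1.26 ± 0.09, adjusted p = 7.48e-11 for VTA against PFC. In males Cdh19 averaged 256 normalised reads in PFC and 207 in HIP, 200.84 in the separately normalised NAc table, and 4.66 RPKM in VTA.

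Cdh18 was lowest in NAc of the female regions, at 937 to 1076 (median 996) in VTA, 289 to 470.1 (median 359) in NAc and 594 to 903 (median 807) in PFC. Its NAc libraries lay below all others, with log2 fold change 1.44 ± 0.11, adjusted p = 1.46e-10 for VTA against NAc and log2 fold change -1.05 ± 0.11, adjusted p = 2.74e-08 for NAc against PFC. In males Cdh18 averaged 814 normalised reads in PFC and 308 in HIP, and 7.77 RPKM in VTA. Cdh10 was 1 of 5 type II cadherins highest in PFC, 4 of them above both other regions by test, again with no share counted over all genes. It read 1439.8 to 1756 (median 1609.6) in VTA, 916 to 1167 (median 1032) in NAc and 1979 to 2501 (median 2159) in PFC. The 3 regions did not overlap, and NAc was below PFC by log2 fold change -1.08 ± 0.07, adjusted p = 6.51e-12. Its call for VTA against PFC was lost in ELS STVS libraries (log2 fold change -0.16, adjusted p = 0.0551). In males Cdh10 averaged 1998 normalised reads in PFC and 1098 in HIP, 1099 in the separately normalised NAc table, and 5.06 RPKM in VTA. Cdh12, a brain type II cadherin like Cdh10, read 193 to 250.1 (median 206) in VTA, 118 to 323 (median 239) in NAc and 404 to 485 (median 440.3) in PFC. PFC stood alone above the other 2, with log2 fold change -1.05 ± 0.20, adjusted p = 1.38e-04 for NAc against PFC and log2 fold change -1.07 ± 0.20, adjusted p = 9.14e-05 for VTA against PFC. In males Cdh12 averaged 569 normalised reads in PFC and 419 in HIP, and 1.23 RPKM in VTA. Cdh9, known for its part in synapses of the hippocampal mossy fibres, fell in the order PFC, NAc and VTA: 221 to 323 (median 265) in VTA, 419 to 578 (median 473) in NAc and 585 to 812 (median 678) in PFC. VTA was below PFC by log2 fold change -1.35 ± 0.11, adjusted p = 2.77e-10. In males Cdh9 averaged 684 normalised reads in PFC and 1117 in HIP, and 2.33 RPKM in VTA.

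Cdh24 was a low VTA gene of the class, at 247 to 319 (median 286) in VTA, 81.7 to 202 (median 132) in NAc and 141 to 168 (median 151) in PFC, with VTA above every NAc library (log2 fold change 1.15 ± 0.16, adjusted p = 1.22e-06). In males Cdh24 averaged 169 normalised reads in PFC and 161 in HIP, 82.8 in the separately normalised NAc table, and 3.79 RPKM in VTA. Cdh6, K-cadherin, was lowest in NAc among female regions, at 232 to 291 (median 252) in VTA, 161 to 265 (median 188) in NAc and 219 to 306 (median 258) in PFC, with log2 fold change 0.36 ± 0.11, adjusted p = 0.00574 for VTA against NAc and log2 fold change -0.40 ± 0.11, adjusted p = 0.00297 for NAc against PFC, and overlapping ranges. In the 3 other groups both were called, at 0.75 to 0.91 and -0.89 to -0.80 on the log2 scale. Its largest difference lay between HIP and PFC, below. In males Cdh6 averaged 320.3 normalised reads in PFC and 117 in HIP, 164 in the separately normalised NAc table, and 3.32 RPKM in VTA. Cdh8, which marks subsets of cortical and striatal neurons, averaged 2332 in VTA, 2039 in NAc and 1885 in PFC, with no large step between regions. In males Cdh8 averaged 2012 normalised reads in PFC and 1628 in HIP, 2492 in the separately normalised NAc table, and 10.6 RPKM in VTA. Cdh11 averaged 1908, 1902 and 3499 in VTA, NAc and PFC, lower in NAc than in PFC (log2 fold change -0.88 ± 0.09, adjusted p = 2.51e-08). In males Cdh11 averaged 3434 normalised reads in PFC and 2253 in HIP, and 14.9 RPKM in VTA. Cdh22 averaged 1547, 1111 and 1393, with log2 fold change 0.47 ± 0.08, adjusted p = 2.00e-05 for VTA against NAc. In males Cdh22 averaged 1232 normalised reads in PFC and 1005 in HIP, and 11.04 RPKM in VTA.

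**Figure D2:**
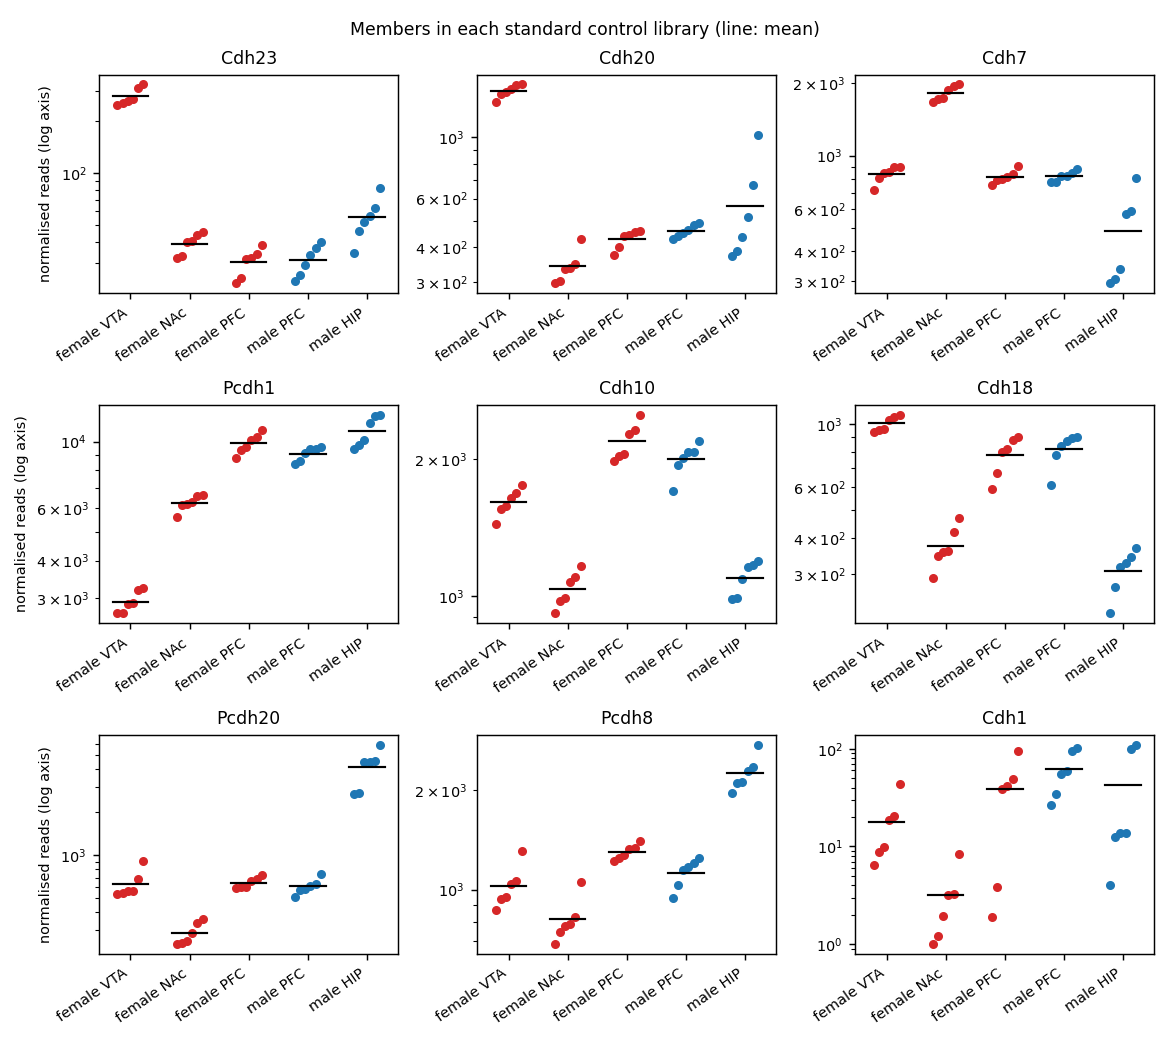
Normalised reads (log axis) of 9 members in each standard control library of the 3 female regions, male PFC and male HIP; each point is 1 library and each line a group mean. Cdh20 and Cdh23 are high in every VTA library, Cdh7 in every NAc library and Pcdh20 in every HIP library, while Cdh1 scatters within regions.

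Both other cadherins were higher in VTA than in NAc. Cdh23, the tip-link cadherin of inner ear hair cells, showed the largest difference of any member between VTA and the other regions. It read 248 to 327 (median 266) in VTA, 32.2 to 45.2 (median 39.9) in NAc and 22.9 to 38.4 (median 32.1) in PFC. No VTA library came near the rest, with log2 fold change 2.81 ± 0.13, adjusted p = 3.93e-14 against NAc and log2 fold change 3.16 ± 0.13, adjusted p = 4.48e-15 against PFC. In males Cdh23 averaged 31.4 normalised reads in PFC and 55.6 in HIP, 47.4 in the separately normalised NAc table, and 1.11 RPKM in VTA. Mature oligodendrocyte markers ran in the same order, with 8 of 8 higher in VTA than in NAc and in NAc than in PFC, and sums of 475502 to 647920.0, 144256 to 207180.0 and 37509 to 50187 normalised reads. Cdh19, Cdh20 and Pcdh9 were likewise higher in VTA than in NAc. From NAc to PFC they did not run alike. Cdh19 was higher in NAc (log2 fold change 0.39, adjusted p = 8.50e-04). Cdh20 (-0.33, adjusted p = 4.49e-04) and Pcdh9 (-0.31, adjusted p = 8.33e-04) were lower there. Cdh23 was higher in NAc (0.35, adjusted p = 0.0230), called in 1 of the 3 other groups and not after quantile normalisation (adjusted p = 0.0543). The part of myelin content in these differences was not tested. Cdh13, T-cadherin, held to the membrane by a lipid anchor with no cytoplasmic tail, averaged 4264 in VTA, 2693 in NAc and 4187 in PFC, lowest in NAc (log2 fold change -0.60 ± 0.13, adjusted p = 3.82e-04 for NAc against PFC). In males Cdh13 averaged 4174 normalised reads in PFC and 2385 in HIP, 3573 in the separately normalised NAc table, and 12.2 RPKM in VTA.

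Delta-1 protocadherins split into opposite patterns. Pcdh1 read 2662 to 3238 (median 2868) in VTA, 5598 to 6614 (median 6217) in NAc and 8837 to 10914 (median 9873) in PFC. The 3 regions did not overlap, with log2 fold change -1.10 ± 0.06, adjusted p = 4.57e-13 for VTA against NAc and log2 fold change -1.76 ± 0.06, adjusted p = 1.82e-16 for VTA against PFC. In males Pcdh1 averaged 9099.5 normalised reads in PFC and 10875 in HIP, 6539 in the separately normalised NAc table, and 11.1 RPKM in VTA. Pcdh9, the most abundant member per length in male VTA, ran the other way, at 6026 to 7929 (median 7205) in VTA, 2793 to 3506 (median 2937) in NAc and 3363 to 4121 (median 3804) in PFC. VTA libraries all lay above those of NAc (log2 fold change 1.23 ± 0.07, adjusted p = 2.69e-12). In males Pcdh9 averaged 4282 normalised reads in PFC and 3956 in HIP, 1903 in the separately normalised NAc table, and 34.9 RPKM in VTA. Pcdh7, also called BH-protocadherin, averaged 3842 in VTA and 3902 in PFC but 2414 in NAc (log2 fold change -0.70 ± 0.08, adjusted p = 6.33e-08 for NAc against PFC). In males Pcdh7 averaged 4742 normalised reads in PFC and 3264 in HIP, and 12.1 RPKM in VTA. Pcdh11x, the X-linked member, averaged 1348 in VTA, 961 in NAc and 719.8 in PFC (log2 fold change 0.91 ± 0.10, adjusted p = 7.26e-08 for VTA against PFC). In males Pcdh11x averaged 732 normalised reads in PFC and 732 in HIP, 981 in the separately normalised NAc table, and 4.33 RPKM in VTA.

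Of the 5 delta-2 protocadherins, 3 were highest in PFC. Pcdh10, which binds the WAVE complex that drives actin branching, read 6670.2 to 9339 (median 7581) in VTA, 9429 to 12086 (median 10374) in NAc and 11699 to 14497 (median 13728) in PFC. VTA was below PFC (log2 fold change -0.75 ± 0.08, adjusted p = 7.97e-08) and NAc only slightly so (log2 fold change -0.31 ± 0.08, adjusted p = 0.00269; called in 1 of the 3 other groups; after quantile normalisation -0.08 at adjusted p = 0.420). In males Pcdh10 averaged 12037 normalised reads in PFC and 5287 in HIP, and 19.8 RPKM in VTA. Pcdh19, the X-linked gene of an epilepsy seen mainly in females, averaged 2060.0 in VTA, 1447 in NAc and 2817 in PFC, and NAc was below PFC by log2 fold change -0.96 ± 0.08, adjusted p = 9.37e-10. In males Pcdh19 averaged 2752 normalised reads in PFC and 5129.5 in HIP, and 5.96 RPKM in VTA. Pcdh8, also called arcadlin and induced by neuronal activity, averaged 1027, 812 and 1299, with log2 fold change -0.69 ± 0.09, adjusted p = 1.82e-06 for NAc against PFC. In males Pcdh8 averaged 1123 normalised reads in PFC and 2260.3 in HIP, and 8.66 RPKM in VTA. Pcdh17, known from corticostriatal synapses, averaged 4480.2, 5872 and 5628, and VTA was below NAc (log2 fold change -0.38 ± 0.11, adjusted p = 0.00574). This was called in 0 of the 3 other groups, where the log2 fold change ran from -0.17 to 0.04, so the direction turned in 1. In males Pcdh17 averaged 5596 normalised reads in PFC and 4338 in HIP, and 16.4 RPKM in VTA. Pcdh18, which binds the reelin adaptor Dab1, was the VTA gene of the group, averaging 604, 354 and 314 (log2 fold change 0.78 ± 0.12, adjusted p = 4.10e-06 for VTA against NAc). In males Pcdh18 averaged 281 normalised reads in PFC and 269 in HIP, 355 in the separately normalised NAc table, and 4.04 RPKM in VTA.

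Among the other solitary protocadherins, Pcdh20 read 539.9 to 907 (median 562) in VTA, 242 to 359 (median 271) in NAc and 589.7 to 727 (median 632) in PFC. NAc libraries lay below all VTA and PFC libraries, by log2 fold change -1.17 ± 0.12, adjusted p = 5.67e-08 against PFC, whereas VTA did not pass the test against PFC (log2 fold change -0.05 ± 0.12, adjusted p = 0.747). In males Pcdh20 averaged 608 normalised reads in PFC and 4110.3 in HIP, 331 in the separately normalised NAc table, and 4.17 RPKM in VTA. Pcdh15, the tip-link partner of Cdh23, did not share its pattern: it averaged 1094 in VTA, 848 in NAc and 1347 in PFC, and NAc was below PFC (log2 fold change -0.67 ± 0.09, adjusted p = 1.15e-06). In males Pcdh15 averaged 1308 normalised reads in PFC and 810.1 in HIP, 686 in the separately normalised NAc table, and 1.60 RPKM in VTA. Pcdh12, a protocadherin of vascular endothelium, was near the limit of the rule at 32.2, 25.2 and 24.95. It did not pass the test in VTA against NAc (log2 fold change 0.32 ± 0.19, adjusted p = 0.134). In males Pcdh12 averaged 17.4 normalised reads in PFC and 27.5 in HIP, and 0.118 RPKM in VTA.

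Genes of the beta cluster were mostly highest in NAc. Of 22, NAc was above PFC for 15 (beside 34.2% of all genes) and below for 0 (beside 32.2%). VTA was below NAc for 17 (beside 37.7%) and above for 2 (beside 40.0%). Medians were 0.49 and -0.58. Without Pcdhb1 the counts were 14 and 0, and 16 and 2, of 21. Their values summed to 6846 to 7845 normalised reads in the NAc libraries, 4398 to 4878 in VTA and 4709 to 5589 in PFC, so no NAc library overlapped with another region. VTA and PFC did not stand apart in 1 direction: 7 were higher in VTA (beside 38.0%) and 10 lower (beside 37.1%), with a median of -0.08. The genes share promoter structure and close sequence, so they are not independent measurements. The 3 of highest mean were Pcdhb17, Pcdhb22 and Pcdhb9. Pcdhb17 averaged 440.2 in VTA, 821 in NAc and 625.03 in PFC. For Pcdhb22 the means were 405, 459 and 477. For Pcdhb9 they were 338, 577 and 443. Past a log2 fold change of 1 in a regional contrast stood 6 beta genes, Pcdhb1 included. VTA against NAc gave 5 of 22 (22.7%, beside 22.5% of all genes). NAc against PFC gave 3 (13.6%, beside 15.1%) and VTA against PFC 1 (4.55%, beside 21.6%). These shares are near or below those of all genes. Pcdhb1, the first gene of the array, read 4.20 to 20.6 (median 15.9) in VTA, 32.1 to 58.0 (median 47.5) in NAc and 3.87 to 7.97 (median 5.45) in PFC and is given with no test, since NAc carried it past the limit. Its levels outside NAc are a few reads to 20.6. Pcdhb6 read 123 to 172 (median 151) in VTA, 258 to 351 (median 277) in NAc and 65.0 to 109 (median 77.4) in PFC (log2 fold change 1.78 ± 0.11, adjusted p = 1.13e-11). Pcdhb16 read 257 to 301 (median 276) in VTA, 527 to 663 (median 567.62) in NAc and 233 to 331 (median 278) in PFC (log2 fold change 1.08 ± 0.07, adjusted p = 4.42e-11). NAc libraries of both lay above those of PFC. Pcdhb13 read 96.1 to 122 (median 107) in VTA, 311 to 427 (median 343) in NAc and 169 to 237 (median 214) in PFC (log2 fold change -1.69 ± 0.10, adjusted p = 9.26e-13 for VTA against NAc). Pcdhb19 read 252 to 297 (median 264) in VTA, 514 to 622 (median 564) in NAc and 327 to 444 (median 391) in PFC (log2 fold change -1.08 ± 0.07, adjusted p = 8.62e-12). Pcdhb20, annotated as a pseudogene in the RPKM table, read 243 to 317 (median 285) in VTA, 559.9 to 700.3 (median 616) in NAc and 384 to 434 (median 409) in PFC (log2 fold change -1.17 ± 0.07, adjusted p = 2.67e-12). In these 3, VTA stood lowest.

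The alpha and gamma arrays were each tested through 1 identifier. Pcdha5, whose identifier is Pcdha11 in the reference, read 56.9 to 77.4 (median 63.3) in VTA, 71.7 to 104 (median 77.3) in NAc and 121 to 223 (median 195) in PFC and was below PFC in NAc (log2 fold change -1.14 ± 0.13, adjusted p = 1.25e-07) and in VTA (log2 fold change -1.47 ± 0.13, adjusted p = 1.65e-09). In male VTA it stood at 5.36 ± 0.237 RPKM. Pcdhga8, whose identifier is Pcdhgc5, read 802 to 956 (median 890.0) in VTA, 312 to 454 (median 330.3) in NAc and 404 to 537 (median 485) in PFC. VTA lay above NAc (log2 fold change 1.35 ± 0.08, adjusted p = 5.52e-12). Pcdha3 was in the RPKM table only, at 1.69 ± 0.227 RPKM.

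In males, HIP stood below PFC for 18 of the 53 members tested (beside 21.3% of all genes) and above it for 7 (beside 21.8%). Pcdh20 was the largest, at 2661 to 5878 (median 4442) in HIP and 512 to 746 (median 595) in PFC (log2 fold change 2.71 ± 0.17, adjusted p = 8.35e-08). Every HIP library lay far above every PFC library. Pcdh8 read 1964 to 2740.2 (median 2199.6) in HIP and 942 to 1243 (median 1160.1) in PFC (log2 fold change 1.01 ± 0.08, adjusted p = 7.40e-07), also without overlap. Of those lower in HIP, Cdh6 read 51.5 to 257 (median 91.5) against 261 to 371 (median 324) (log2 fold change -1.64 ± 0.30, adjusted p = 6.06e-04). Cdh18 read 218 to 370.2 (median 322) against 611 to 897 (median 855) (log2 fold change -1.41 ± 0.13, adjusted p = 1.51e-06). Pcdh10 read 4112 to 7204 (median 4848) against 10875 to 13914 (median 11818) (log2 fold change -1.21 ± 0.11, adjusted p = 2.22e-06). None of the 3 overlapped. Type II cadherins as a class gave 7 lower (beside 21.3% of all genes) and 1 higher (beside 21.8%) of 12, with a median of -0.40. The higher one was Cdh9, at 575 to 1631 (median 1109) in HIP and 593 to 824 (median 682) in PFC (log2 fold change 0.62 ± 0.22, adjusted p = 0.0324). This call was lost without any 1 of HIP replicates 2, 3 and 5 or PFC replicates 1 to 5 (log2 0.49 to 0.63, adjusted p 0.0514 to 0.0831). Pcdh19 was higher in HIP (5129.5 against 2752, log2 fold change 0.90 ± 0.07, adjusted p = 4.02e-07), and Pcdh15, the hair-cell partner of Cdh23, lower (log2 fold change -0.70 ± 0.09, adjusted p = 3.88e-05). Among beta genes 5 of 21 were lower in HIP (beside 21.3%) and 0 higher (beside 21.8%), with a median of -0.15. In libraries of standard defeat males this was 9 called (beside 37.7% of all genes), all 9 higher (beside 18.7%), median 0.17. Leaving out the 14 doubted libraries, 5 of which stood in this comparison, gave 3 called (beside 32.2%), 2 higher (beside 15.7%) and 1 lower, median 0.12. So no direction between HIP and PFC can be given for this cluster. Among the members named for their size, leaving out the same libraries ended the HIP calls of Cdh23 (0.47), Pcdh1 (0.17), Pcdhb13 (-0.30), Pcdhb19 (-0.30) and Cdh12 (-0.11). Calls of members not named for size are not in this list.

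The large regional differences recurred in groups that differ in rearing and adult stress, which are other mice. Of the 16 called between VTA and NAc, all 16 were called in the ELS control, standard STVS and ELS STVS libraries too, in the same direction. For NAc against PFC it was 10 of 11, with Cdh1 called in 2 of the 3. All 8 for VTA against PFC were called in each, and 4 of 5 for HIP against PFC, with Cdh6 called in 2 of the 3. In each of these contrasts all members past that fold kept their direction in all 3 groups. Of all members called at any fold, 35 of 46, 31 of 42, 27 of 40 and 12 of 25 were called in the 3 other groups, in the order of the contrasts above, and 43, 42, 39 and 18 kept their direction. Pcdhb1, which NAc carried past the limit, is in the counts of the first 3 contrasts. How often other genes recurred is not given here, so these counts do not set the members apart from other genes.

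Partners of the members were followed as lists. Of all genes, 40.0% were called higher and 37.7% lower in VTA than in NAc. For NAc against PFC these shares were 34.2% and 32.2%, and for VTA against PFC 38.0% and 37.1%. Of 10 catenins and armadillo partners, 5 were higher and 3 lower in VTA than in NAc (median 0.12), and 3 higher and 5 lower in NAc than in PFC (median -0.25). Ctnnd2, delta-catenin of dendrites, was lower in VTA than in PFC (log2 fold change -0.91, adjusted p = 2.81e-14), while Ctnna3, an alpha-catenin, was higher (log2 fold change 2.32, adjusted p = 1.38e-12). Of 12 measured large cadherin relatives (of 14), 5 were higher and 7 lower in VTA than in NAc. Clstn2, a calsyntenin of postsynaptic membranes, was higher in VTA (log2 fold change 2.24, adjusted p = 1.54e-12), and Celsr1, a planar polarity cadherin, lower (log2 fold change -2.46, adjusted p = 5.09e-09). Ret, a receptor with cadherin repeats that serves GDNF family ligands, was far higher in VTA (log2 fold change 6.79, adjusted p = 2.12e-13). Of 14 genes of protocadherin signalling and cleavage, 2 were higher and 11 lower in VTA than in PFC. Their log2 fold changes ran from -5.25 to 0.32 (median -0.60). Among the lower were Dab1 (log2 fold change -1.64, adjusted p = 5.90e-14) and Adam10, the protease that sheds cadherin ectodomains (log2 fold change -0.45, adjusted p = 1.14e-08). Of 9 measured regulators of the clusters (of 10), 2 were higher and 5 lower in VTA than in NAc (median -0.39), and 6 higher and 1 lower in NAc than in PFC (median 0.27). Ctcf, which loops cluster promoters to enhancers, was lower in VTA than in NAc (log2 fold change -0.48, adjusted p = 3.09e-10), and so was Smchd1, a silencer of the clusters (log2 fold change -0.50, adjusted p = 4.10e-09).

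Neither ELS, nor adult stress, nor both gave a called change in any member. Over 7 region and sex sets and 49 contrasts, 2343 pairs of a member and a contrast were tested, and 0 were called by limma, beside 0.0% of all genes in each contrast. The lowest adjusted p was 0.210. The edgeR quasi-likelihood test on recovered reads, run for 6 sets, called 0 as well. At an unadjusted p under 0.05 stood 202 pairs by limma (8.62%), beside 6.21% of all pairs of a gene and a contrast. By edgeR such pairs numbered 24 of 318 in female NAc (beside 7.27% of all pairs), 27 of 318 in female PFC (beside 5.74%), 19 of 324 in female VTA (beside 4.64%), 48 of 318 in male HIP (beside 9.43%), 40 of 429 in male NAc (beside 6.05%) and 32 of 318 in male PFC (beside 7.57%). The contrasts of a set share control libraries, so their counts are not independent. Genes of the lists of partners and cell markers were not called either, 0 in each contrast. The absence of a call does not show that a member is unaffected.

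Male HIP held the most low p-values. For defeat alone, 16 of 53 members had an unadjusted p under 0.05 (30.2%, beside 14.1% of genes), 12 with higher means after defeat. Without the doubted libraries, which include 3 of the 6 standard controls, this was 1 of 53 (beside 3.03%). The interaction gave 16 (beside 11.7%), and 1 without them (beside 2.07%). The members named here and below are those of smallest p on each side against standard control. The stressed group is given first, as mean ± SD with its range. Cdh4 averaged 511 ± 69.2 normalised reads (387 to 598) against 1005 ± 468 (563 to 1750.0) in defeat against control, with a log2 fold change -0.86, adjusted p = 0.316. Pcdh18 averaged 189 ± 35.2 normalised reads (143 to 239.6) against 269 ± 48.3 (231 to 352), with a log2 fold change -0.51, adjusted p = 0.307. Pcdh17 averaged 3519 ± 512 normalised reads (2548 to 3967) against 4338 ± 282 (3836 to 4554), with a log2 fold change -0.31, adjusted p = 0.317. All 3 means were lower after defeat, with overlapping ranges. Cdh12 had a higher mean after defeat, 554 ± 91.6 normalised reads (495 to 732) against 419 ± 83.1 (312 to 532), with a log2 fold change 0.41, adjusted p = 0.307. ELS alone gave 8 of 53 members, and 1 without the doubted libraries (beside 1.36% of genes). After ELS alone, Pcdhb22 averaged 460.2 ± 26.7 normalised reads (427 to 489.9) against 402 ± 31.8 (346 to 434), with a log2 fold change 0.20, adjusted p = 0.764. Pcdhb13 averaged 226 ± 20.51 normalised reads (195 to 253) against 178 ± 28.6 (149.8 to 214), with a log2 fold change 0.35, adjusted p = 0.764. Over all 6 contrasts of male HIP, the members of 53 with an unadjusted p under 0.05 numbered 8 for ELS alone (beside 6.38%), 0 for ELS and defeat against standard control (beside 3.47%), 2 for ELS history after defeat (beside 2.99%), 3 for defeat after ELS (beside 7.77%), 16 for defeat alone (beside 14.1%) and 16 for the interaction of ELS and defeat (beside 11.7%).

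HIP libraries differed in choroid plexus transcripts. Of the 6 HIP standard controls, 3 held Ttr at 171510.0 to 250318 normalised reads, and the other 3 held 28.2 to 42.5. The 10 choroid plexus markers summed to 282941 to 430296 and to 2521 to 3371. In the 3 high libraries 6 of 53 members lay above the range of the other 3 (beside 17.5% of all genes) and 14 below it (beside 14.4%), and 33 overlapped. This split follows a transcript, not a label, so it is described with no test. Cdh4 read 1171 to 1750.0 in the high libraries and 563 to 697 in the others. Cdh7 read 573 to 809 and 294 to 336. Cdh22 read 1096 to 1658 and 565 to 792. These 3 were above, with Pcdh7, Pcdh18 and Pcdhb6. Below stood Cdh9, at 575 to 924 against 1295 to 1631, and Cdh20, at 372 to 435 against 516 to 1016. Cdh12, Pcdh9 and 10 beta genes also lay below. How far the punch, rather than the stress groups, set these members in HIP was not tested.

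**Figure D3:**
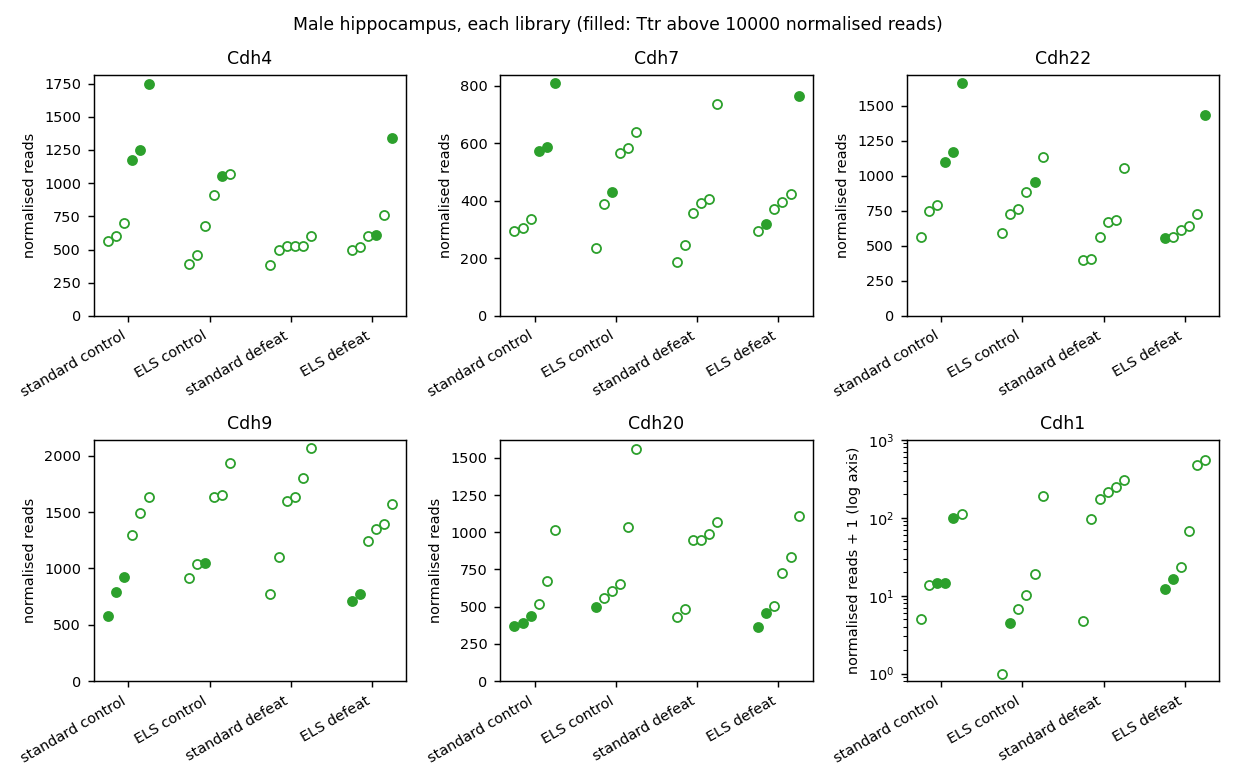
Normalised reads of 6 members in the 24 male HIP libraries, by group; each point is 1 library and filled points are the 6 with Ttr above 10000. Filled points of the standard control group sit at the top for Cdh4, Cdh7 and Cdh22 and at the bottom for Cdh9 and Cdh20.

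Cdh1 in HIP followed single libraries. In the ELS defeat group, replicate 3 held 545 and replicate 6 held 477 normalised reads, against a median of 43.9 in that group. These 2 libraries had meninges and fibroblast marker sums of 26792 and 25942, the highest of the 24 HIP libraries, and the part of meninges in the Cdh1 values was not tested.

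In male PFC, 9 of 53 members had an unadjusted p under 0.05 after defeat alone (17.0%, beside 3.56% of genes), all 9 with lower means, and 7 without the doubted libraries (beside 3.14%). Pcdhb5 averaged 158 ± 24.1 normalised reads (133 to 198) against 198 ± 33.3 (157 to 237), with a log2 fold change -0.32, adjusted p = 0.997. Pcdhb17 averaged 559 ± 45.2 normalised reads (506 to 625.18) against 628 ± 56.8 (554 to 727), with a log2 fold change -0.17, adjusted p = 0.997. Cdh19 averaged 204 ± 42.1 normalised reads (159 to 267) against 256 ± 38.1 (202 to 308), with a log2 fold change -0.34, adjusted p = 0.997. None of the 3 separated from control by range. On the higher side, Cdh22 averaged 1490.1 ± 225 normalised reads (1145 to 1733) against 1232 ± 225 (955 to 1507) after ELS with defeat, with a log2 fold change 0.28, adjusted p = 0.582. After ELS alone Pcdh12 averaged 24.3 ± 8.58 normalised reads (14.4 to 35.3) against 17.4 ± 5.21 (9.60 to 24.6), with a log2 fold change 0.44, adjusted p = 0.99998. Cdh2, N-cadherin, averaged 3827 ± 495 normalised reads (3256 to 4497) against 3417 ± 399 (2977 to 4028), with a log2 fold change 0.16, adjusted p = 0.99998. Across the 6 male PFC contrasts, the members of 53 with an unadjusted p under 0.05 numbered 2 for ELS alone (beside 2.58%), 3 for ELS and defeat against standard control (beside 8.12%), 9 for ELS history after defeat (beside 7.96%), 9 for defeat after ELS (beside 15.4%), 9 for defeat alone (beside 3.56%) and 6 for the interaction of ELS and defeat (beside 5.89%).

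In male VTA the smallest p was that of Cdh23, the hair-cell cadherin with the largest VTA difference of the members in females. The 6 pools of standard defeat read 0.398, 0.425, 0.514, 0.533, 0.598 and 0.679 RPKM, and the 4 standard controls read 0.928, 0.935, 1.05 and 1.52. The groups did not overlap. The means were 0.524 ± 0.105 RPKM (0.398 to 0.679) against 1.11 ± 0.280 (0.928 to 1.52), with a log2 fold change -0.46, adjusted p = 0.691. Over all 20 male VTA libraries, ELS pools included, Cdh23 had a median of 0.545 and a mean of 0.677 RPKM, near the 0.5 RPKM limit. All 4 standard controls lay above both values. Cdh24 averaged 3.02 ± 0.440 RPKM (2.53 to 3.72) against 3.79 ± 0.415 (3.46 to 4.32) after defeat, with a log2 fold change -0.25, adjusted p = 0.691. Pcdh15 averaged 1.33 ± 0.0794 RPKM (1.25 to 1.46) against 1.60 ± 0.138 (1.46 to 1.77), with a log2 fold change -0.15, adjusted p = 0.691, also without overlap. Both Cdh23 and its partner Pcdh15 thus had lower means, and neither passed adjustment. Pcdha5 averaged 5.69 ± 0.195 RPKM (5.54 to 5.96) against 5.36 ± 0.237 (5.19 to 5.70) after defeat, with a log2 fold change 0.07, adjusted p = 0.691. Cdh10 averaged 5.32 ± 0.102 RPKM (5.17 to 5.39) against 5.06 ± 0.230 (4.79 to 5.35) after ELS, with a log2 fold change 0.06, adjusted p = 0.999. Cdh22 averaged 12.4 ± 0.806 RPKM (11.4 to 13.5) against 11.04 ± 0.792 (10.2 to 11.9) after both, with a log2 fold change 0.15, adjusted p = 0.9997. In the 6 contrasts of that set, the members of 53 with an unadjusted p under 0.05 numbered 1 for ELS alone (beside 2.03%), 2 for ELS and defeat against standard control (beside 2.52%), 1 for ELS history after defeat (beside 5.77%), 6 for defeat after ELS (beside 4.57%), 4 for defeat alone (beside 6.56%) and 5 for the interaction of ELS and defeat (beside 5.46%).

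In male NAc, with 33 members, Cdh24 averaged 128 ± 31.7 normalised reads (102 to 171) against 82.8 ± 14.3 (64.6 to 95.3) after ELS on days 10 to 20, with a log2 fold change 0.61, adjusted p = 0.366, its 4 pools all above the 4 controls. Pcdhb9 averaged 524 ± 34.6 normalised reads (495 to 567) against 611 ± 36.7 (577 to 647) in the same contrast, with a log2 fold change -0.22, adjusted p = 0.374, all below. Pcdhb4 averaged 75.1 ± 13.8 normalised reads (63.3 to 94.4) against 96.1 ± 4.75 (90.8 to 102) there, with a log2 fold change -0.37, adjusted p = 0.555. These groups hold 4 pools each, and 6 of 33 members had an unadjusted p under 0.05 (beside 7.43%). For the earlier window it was 0 of 33 (beside 2.49%). After ELS on days 2 to 12 with defeat, Pcdhb20 averaged 552 ± 37.6 normalised reads (519 to 612) against 659 ± 41.3 (604 to 696), with a log2 fold change -0.25, adjusted p = 0.9999. Cdh23 averaged 74.5 ± 27.3 normalised reads (34.0 to 107) against 47.4 ± 13.5 (32.6 to 63.5), with a log2 fold change 0.59, adjusted p = 0.9999. Pcdha5 averaged 4566 ± 348 normalised reads (4077 to 5016) against 4334 ± 61.3 (4280.1 to 4421) after the later window with defeat, with a log2 fold change 0.07, adjusted p = 0.908. For the 13 contrasts of male NAc, the members of 33 with an unadjusted p under 0.05 numbered 4 for ELS P10-20 against ELS P2-12, control (beside 8.89%), 5 for ELS P10-20 against ELS P2-12, defeat (beside 8.53%), 6 for ELS P10-20 alone (beside 7.43%), 2 for ELS P10-20 and defeat against standard control (beside 5.79%), 1 for ELS P10-20 history after defeat (beside 4.27%), 0 for ELS P2-12 alone (beside 2.49%), 2 for ELS P2-12 and defeat against standard control (beside 3.52%), 3 for ELS P2-12 history after defeat (beside 6.53%), 2 for defeat after ELS P10-20 (beside 9.37%), 4 for defeat after ELS P2-12 (beside 8.87%), 0 for defeat alone (beside 2.63%), 5 for the interaction of ELS P10-20 and defeat (beside 3.16%) and 0 for the interaction of ELS P2-12 and defeat (beside 6.43%).

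In female VTA, ELS with STVS gave 8 of 54 members an unadjusted p under 0.05 (beside 10.7% of genes), and 3 without the doubted libraries (beside 5.33%). Pcdhb13 averaged 130.4 ± 13.9 normalised reads (116 to 154) against 108 ± 10.1 (96.1 to 122), with a log2 fold change 0.27, adjusted p = 0.462. Pcdh9 averaged 6266 ± 473 normalised reads (5605 to 6902) against 7163 ± 678 (6026 to 7929), with a log2 fold change -0.19, adjusted p = 0.462. Pcdh7 averaged 3449 ± 270.2 normalised reads (2977 to 3698) against 3842 ± 369.6 (3426 to 4274), with a log2 fold change -0.15, adjusted p = 0.462. The last 2 are delta-1 genes, both with lower means. Pcdh17 averaged 5216 ± 597 normalised reads (4547 to 5762) against 4480.2 ± 346 (3962 to 4827) after ELS, with a log2 fold change 0.22, adjusted p = 0.896. After STVS, Pcdhb18 averaged 347 ± 22.3 normalised reads (325 to 378) against 309 ± 16.3 (290.2 to 332), with a log2 fold change 0.17, adjusted p = 0.861. Cdh24 averaged 255 ± 16.9 normalised reads (237 to 283) against 285 ± 27.8 (247 to 319), with a log2 fold change -0.16, adjusted p = 0.861. Over all 6 female VTA contrasts, the members of 54 with an unadjusted p under 0.05 numbered 4 for ELS alone (beside 4.19%), 8 for ELS and STVS against standard control (beside 10.7%), 3 for ELS history after STVS (beside 4.27%), 0 for STVS after ELS (beside 1.63%), 3 for STVS alone (beside 4.33%) and 1 for the interaction of ELS and STVS (beside 2.57%).

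In female NAc, ELS alone gave 8 of 53 members an unadjusted p under 0.05 (beside 11.1%). Pcdh18 averaged 490.2 ± 32.9 normalised reads (435 to 517) against 354 ± 76.9 (285 to 482), with a log2 fold change 0.49, adjusted p = 0.425. Pcdh8 averaged 1132 ± 100.0 normalised reads (1042 to 1281) against 812 ± 128 (686 to 1056), with a log2 fold change 0.49, adjusted p = 0.425. Pcdhga8 averaged 459 ± 58.2 normalised reads (361 to 512) against 351 ± 54.2 (312 to 454), with a log2 fold change 0.39, adjusted p = 0.428. All 3 had higher means in ELS mice, with overlapping ranges. After STVS alone, Cdh7, highest in NAc of the female regions, averaged 1505 ± 204 normalised reads (1304 to 1745) against 1817 ± 132 (1664 to 1977), with a log2 fold change -0.28, adjusted p = 0.754. Pcdh9 averaged 2581 ± 368 normalised reads (1966 to 2899) against 3050.0 ± 287 (2793 to 3506), with a log2 fold change -0.25, adjusted p = 0.754. Pcdhb14 averaged 516 ± 47.5 normalised reads (468 to 575) against 603 ± 50.6 (539.8 to 689), with a log2 fold change -0.22, adjusted p = 0.754. Each had a lower mean. Across the 6 female NAc contrasts, the members of 53 with an unadjusted p under 0.05 numbered 8 for ELS alone (beside 11.1%), 2 for ELS and STVS against standard control (beside 3.39%), 8 for ELS history after STVS (beside 12.6%), 1 for STVS after ELS (beside 2.49%), 4 for STVS alone (beside 6.08%) and 1 for the interaction of ELS and STVS (beside 7.94%).

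In female PFC, ELS with STVS gave 7 of 53 (beside 5.35%). Cdh4 averaged 934 ± 144 normalised reads (797 to 1189) against 1144 ± 60.01 (1061 to 1213), with a log2 fold change -0.30, adjusted p = 0.712. Cdh10, highest in PFC of the female regions, averaged 1853 ± 143 normalised reads (1691 to 2058) against 2190.1 ± 204 (1979 to 2501), with a log2 fold change -0.24, adjusted p = 0.735. Cdh1 ran from 2.30 to 6.94 after both stresses and from 1.90 to 95.4 in controls (log2 fold change -2.01, adjusted p = 0.755), so the controls spanned the stressed range. On the higher side stood Pcdhb6, at 106 ± 9.86 normalised reads (96.3 to 125) against 83.3 ± 16.0 (65.0 to 109), with a log2 fold change 0.36, adjusted p = 0.822. Pcdh9 averaged 4286 ± 503 normalised reads (3601 to 5096) against 3781 ± 359 (3363 to 4121), with a log2 fold change 0.18, adjusted p = 0.937. After ELS alone Cdh12 averaged 581 ± 174 normalised reads (471 to 890.1) against 444 ± 30.1 (404 to 485), with a log2 fold change 0.35, adjusted p = 0.9998. In the 6 contrasts of female PFC, the members of 53 with an unadjusted p under 0.05 numbered 2 for ELS alone (beside 3.31%), 7 for ELS and STVS against standard control (beside 5.35%), 7 for ELS history after STVS (beside 10.5%), 2 for STVS after ELS (beside 3.45%), 1 for STVS alone (beside 5.23%) and 4 for the interaction of ELS and STVS (beside 7.85%).

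**Figure D4:**
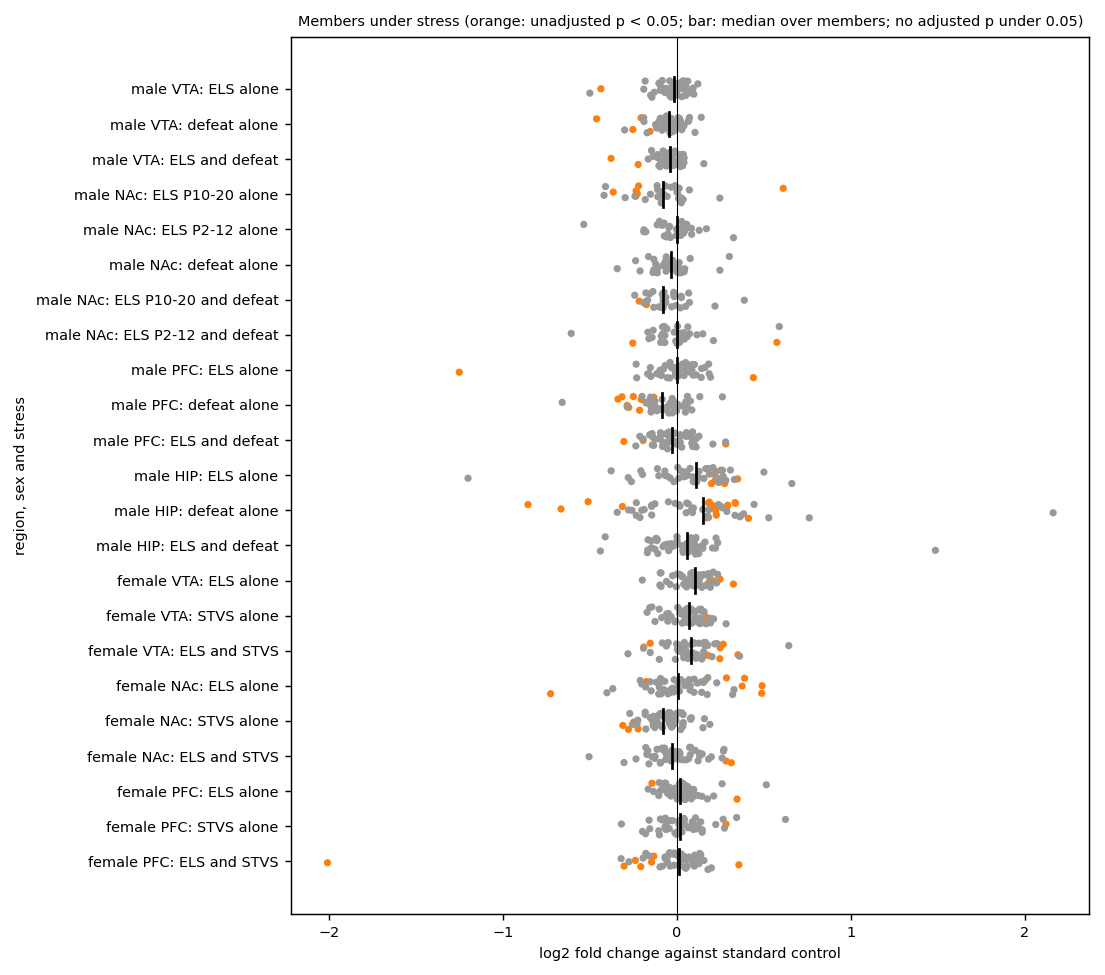
Log2 differences of the members against standard control for 23 stress contrasts in 7 region and sex sets; each point is 1 member, orange points have an unadjusted p under 0.05 and the bar is the median. No point passed adjustment, and the lowest adjusted p over all 49 contrasts was 0.210.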

How the data were processed

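The authors deposited RPKM values for male VTA. The remaining libraries were deposited as a signal in normalised reads, in which a single scaling factor relates every gene of a library to its reads. The submitters' processing notes name HISAT, HTSeq and mm10 for these, and TopHat2, HTSeq, mm9 and mm10 for male VTA, without RNA versions. Positive values in the normalised tables came out whole (100.0% within 0.001) once divided by the worth of a single read, which gave back whole reads. Normalisation differed between the 3 tables, so no test crosses them.

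The design allowed for counts, and as the values were normalised, limma 3.58.1 (R 4.3.3, trend, robust) was fitted to log2(value + 1) with 1 coefficient per group. Genes with a mean of at least 10 normalised reads, or 0.5 RPKM, were tested and p-values adjusted by Benjamini-Hochberg. Adjusted p-values are those of limma unless edgeR 4.0.16, an alternative on the recovered reads, is named. The fits were tested on simulated data. Groups came from titles and characteristics. For 10 female NAc libraries whose adult label repeats the sex the title was used.

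The members, lists and rules were chosen with earlier results of these data known. Named with library values are the members called with an absolute log2 fold change of at least 1 between regions (up to 24 by size; Pcdh8, the 25th, is given too, and the 6 beta genes past that fold were chosen after their values were seen). For stress, the 3 higher and 3 lower of smallest p against standard control are named per set. Titles repeat group and number across regions, but no label says whether such libraries share a mouse; p-values treat them as separate and measure the spread between these samples. Alternatives are given in the closing section. Chromatin and input libraries (16) were not used here.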

Additional observations from a re-analysis of the deposited data

Results flagged for a closer look

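A library was set apart where its gap to the nearest other library of its group, divided by the range of the group, passed Dixon's 95% value. Of 120 groups of standard controls and named members tested, 4 were, all through a high library, and chance alone sets apart about 1 in 20 groups. Pcdhb1 in male HIP replicate 4 read 15.9 normalised reads beside a group median of 4.26 (gap ratio 0.900). Cdh1, E-cadherin, in female NAc replicate 3 read 8.32 beside 2.59 (gap ratio 0.688). Pcdhb6 in the same NAc library read 351.5 beside 277 (gap ratio 0.755). Pcdhga8 in female NAc replicate 2 read 454 beside 330.3 (gap ratio 0.626). The first 2 values are a few reads and carry wide counting error.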

How the results depend on the processing

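The count of members past a log2 fold change of 1 was 16 between female VTA and NAc and 10 in standard STVS libraries. Between NAc and PFC it was 11, and 6 in ELS STVS libraries. Under the other filters, pseudocount, quantile normalisation, edgeR, the doubted libraries left out and the remaining groups, the counts of the 4 regional contrasts stayed within 1.5 times. Leaving out each library in turn gave 16 to 17 for VTA against NAc, 9 to 12 for NAc against PFC, 7 to 8 for VTA against PFC and 4 to 6 for HIP against PFC, and 0 to 0 for each stress set. No alternative called a member in a stress contrast.

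Among the members named for their size, directions turned for 3 between HIP and PFC: Pcdhb13 in ELS control (0.12), ELS defeat (0.0098) and standard defeat (0.13) libraries, Pcdhb19 in standard defeat (0.042) and Cdh12 in standard defeat (0.22). The cause was not tested. Of the other called members, Cdh8, Pcdh12, Pcdhb17 and Pcdhb22 turned there in 1 group, as did Pcdh17, Pcdhb21 and Pcdhb22 in VTA against NAc and Pcdhb15 in VTA against PFC. Of the 95 named pairs of a member and a regional contrast, edgeR changed the call of 0, and leaving out the doubted libraries ended 5, all between HIP and PFC.

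Replicate numbers as a block left the regional counts at 16, 11, 8 and 5 and ended 2 named calls between HIP and PFC, Cdh9 (0.62, adjusted p = 0.0621) and Cdh12 (-0.44, adjusted p = 0.0762). Same-numbered libraries deviated together (r over 0.1) in 2 of 18 pairs of female regions and 1 of 6 of male regions, and between the groups of a stress set in 8 of 26 pairs (male VTA), 13 of 36 (male PFC), 16 of 36 (male HIP), 17 of 31 (female VTA) and 11 of 31 (female NAc and PFC each). The rule asked for every pair, so the numbers were not taken to pair samples. The depth of male VTA is unknown, so edgeR was not run there. A block was not run in male NAc.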
